A study of Homo sapiens with 4 samples.

Results

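The data described here are the transcript levels of 8 genes of the oncofetal HMGA, LIN28 and IGF2BP axis in SUIT2 cells, a human tumour cell line, with and without the drug fb-PMT. The genes are HMGA1, HMGA2, LIN28A, LIN28B, IGF2BP1, IGF2BP2, IGF2BP3 and ARID3B. Each of the 8 matched 1 transcript cluster (the array's probe set for a locus) by its gene symbol in the platform annotation, among 21448 transcript clusters in all. The set was chosen by known function together with measured values of the same arrays: HMGA2 was already known to be among the largest decreases with fb-PMT in them. The differences of the 8 genes are therefore a description and support nothing by themselves.

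The control group is 2 arrays of SUIT2 cells exposed to phosphate-buffered saline, and the fb-PMT group is 2 arrays of the same line given 30 µM of the drug, both for 24 h. fb-PMT is a thyroid hormone analog derivative directed at the hormone's binding site on integrin αvβ3, and the series asks how it alters the transcription of cancer cells. The line is a single model, and nothing in the labels says that the 2 samples of a group were separate cultures, so the p-values reflect the variation among these 4 samples alone, part or all of which may be technical. Bulk RNA was measured, so fewer expressing cells and less RNA per cell cannot be told apart. The labels name the cells glioblastoma, whereas SUIT-2 is known as a pancreatic carcinoma line. Of 7 epithelial markers, 5 (KRT7, KRT8, KRT18, KRT19 and EPCAM) lay above the array's negative controls on all 4 arrays and 2 (CDH1 and MUC1) lay below them. All 6 glial markers, GFAP and OLIG2 among them, lay below on every array, as did the 3 measured fibroblast markers, the 3 endothelial markers and 2 of 3 leukocyte markers (CD68 lay above). The summed log2 level of the 7 epithelial markers was 87.8 to 88.1 in the control group and 86.2 to 86.4 in the fb-PMT group. Of the 7, 5 were lower and 2 higher, with no overlap of the groups for any. Over all transcript clusters the groups did not overlap for 22.3% in the lower and 20.2% in the higher direction. CDH1 and MUC1 enter the sum and these counts, although below the negative controls they have no settled direction. KRT7 had the largest log2 difference (-0.95, SE 0.17), and none of the 7 passed limma's test. With a variance that depends on signal, KRT7, KRT8 and KRT18 passed lower and EPCAM higher. In that fit 0.513% of all transcript clusters passed lower and 1.37% higher. The part of these marker differences in the results was not tested. The summed log2 level of the glial list ran from 24.9 to 25.6 in the control group and from 24.1 to 25.3 in the fb-PMT group.

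HMGA1 and HMGA2 are small architectural chromatin proteins whose AT-hooks bind AT-rich DNA. LIN28A and LIN28B bind the precursors of the let-7 microRNAs and keep them from maturing, and mature let-7 in turn represses many transcripts of fetal growth, among them those of HMGA2, LIN28B, the IGF2BP genes and ARID3B. The 3 IGF2BP proteins bind messenger RNAs, with IGF2 as the client that gave them their name, and affect their stability and translation. These genes are active in the embryo, are mostly shut off in adult tissue and return in many carcinomas, pancreatic carcinoma included.

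The sequence that ties the axis together is the let-7 seed, the stretch with which the microRNA pairs to its targets. The table of human microRNAs from RefSeq (GRCh38.p14) held 9 mature 5p forms of let-7 and miR-98. They are shown 5′ to 3′ with bases 2 to 8, the seed, in capitals. The arrays did not measure these microRNAs by name.
let-7a-5p: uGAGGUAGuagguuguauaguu
let-7b-5p: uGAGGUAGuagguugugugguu
let-7c-5p: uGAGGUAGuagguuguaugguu
let-7d-5p: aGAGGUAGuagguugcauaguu
let-7e-5p: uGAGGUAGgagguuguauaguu
let-7f-5p: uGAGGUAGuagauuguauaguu
let-7g-5p: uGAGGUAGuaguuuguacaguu
let-7i-5p: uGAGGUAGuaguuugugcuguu
miR-98-5p: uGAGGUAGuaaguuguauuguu
All 9 carry the same seed, and among the 2370 mature microRNAs tabulated it is found in 11, the other 2 being miR-4458 and miR-4500. The forms differ from each other only outside the seed. The let-7a form is encoded at 3 loci, among them chr9:94175962-94175983 on the plus strand, and let-7g at chr3:52268336-52268357 on the minus strand.

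LIN28 proteins recognise a GGAG element in the loop of many let-7 precursors. Of the 12 hairpins of let-7 and miR-98 in the RefSeq table, 9 hold the letters GGAG on the given strand, against 43.4% of all 1562 hairpins of any kind in it. Among the 11 in which both arms could be placed, 8 had the letters between the arms. A hairpin with the letters and one without are shown, with GGAG in capitals, because the levels of both LIN28 genes are part of the results. The first lies at chr3:52268278-52268361 (minus strand) and the second at chr22:46113686-46113768 (plus strand). A match in letters is a description and not a measured binding site.
MIRLET7G: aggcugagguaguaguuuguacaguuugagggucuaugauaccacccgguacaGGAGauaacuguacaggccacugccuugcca
MIRLET7B: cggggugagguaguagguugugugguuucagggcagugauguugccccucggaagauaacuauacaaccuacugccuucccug

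Values are log2 signals per transcript cluster as the authors deposited them. The 95th percentile of the negative control probe sets, 7.15 to 7.38 over the 4 arrays, served as background, and levels of different genes were not compared, since each probe set has its own response. By this measure 3 of the 8 genes, HMGA1, IGF2BP2 and IGF2BP3, lay above background on all 4 arrays. HMGA2 lay above it on both control arrays and on 1 of 2 fb-PMT arrays. LIN28A, LIN28B, IGF2BP1 and ARID3B lay below it on all 4. Log2 differences printed for them describe signal below background and are not read as a fold or a direction.

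**Figure D1:**
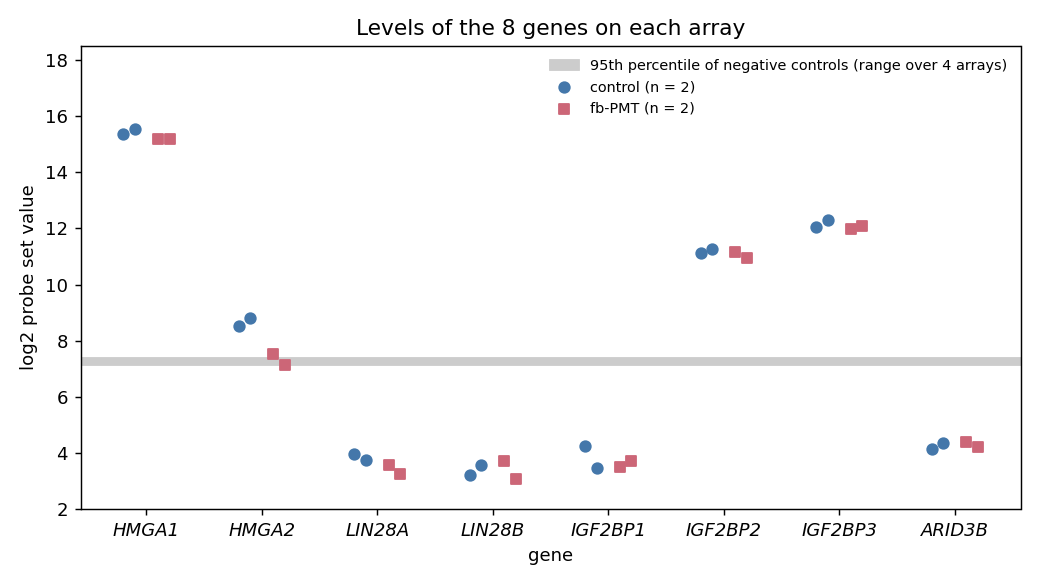
Log2 probe set value (vertical axis) of each of the 8 genes on the 2 control arrays (circles) and the 2 fb-PMT arrays (squares), with the range of the negative controls' 95th percentile as a grey band. HMGA2 moves from above the band to its edge, HMGA1, IGF2BP2 and IGF2BP3 stay above it, and the other 4 genes lie below it.

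Of the chromatin proteins, HMGA2 had log2 levels of 8.52 and 8.81 in the control samples and of 7.51 and 7.14 after fb-PMT. Both fb-PMT arrays were below both control arrays, and the second of them was below the negative controls of its array (7.29). The group means were 8.66 ± 0.21 (SD, n = 2) and 7.33 ± 0.27 (SD, n = 2). The log2 difference, fb-PMT minus control, was -1.34 with a standard error of 0.20 in limma's fit, or 2.53-fold lower. Among all 21448 transcript clusters this was the 13th lowest difference. Subtracting each control array from each fb-PMT array gave log2 differences from -1.67 to -1.001, a spread smaller than the difference itself. The lower level lies at the edge of background, where the array compresses differences.

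HMGA1, the close relative of HMGA2, was at log2 levels of 15.37 and 15.54 in control and 15.18 on both fb-PMT arrays. The groups did not overlap, but the log2 difference was small at -0.28 (SE 0.15, 1.21-fold lower). Several HMGA1 pseudogenes are listed in RefSeq, so the HMGA1 signal is uncertain where probes match a copy. Whether the log2 differences of HMGA1 and HMGA2 differ from each other beyond error was not tested.

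Of the let-7 binding proteins, LIN28A had log2 levels of 3.98 and 3.74 in control and of 3.57 and 3.25 with fb-PMT. The groups did not overlap, yet all 4 values lay under the negative controls, so they show no order of transcript level. LIN28B was at 3.21 and 3.58 in control and 3.70 and 3.07 with fb-PMT on the log2 scale. Its 2 fb-PMT arrays enclosed both control arrays. No LIN28 transcript was thus detected above the negative controls in either group, which sets a limit of detection and does not show that the genes are silent.

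Of the RNA-binding proteins, IGF2BP3 and IGF2BP2 were the detected members. IGF2BP3 had log2 levels of 12.04 and 12.31 in control and 12.00 and 12.10 with fb-PMT, a log2 difference of -0.13 (SE 0.17). IGF2BP2, which HMGA2 is known to activate in the embryo, had log2 levels of 11.12 and 11.28 in control and 11.15 and 10.94 with fb-PMT, a log2 difference of -0.15 (SE 0.16). In both genes the groups overlapped, and the difference was smaller than its standard error. IGF2BP1 was below background at log2 levels of 4.24 and 3.47 in control and 3.49 and 3.71 with fb-PMT. Its 2 control arrays lay 0.77 apart, the widest gap between replicates among the control values of the 8 genes. RefSeq lists pseudogenes of IGF2BP2, IGF2BP3 and LIN28A as well, which adds the same uncertainty as for HMGA1.

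ARID3B, a DNA-binding protein of the ARID family and a let-7 target, was below background with log2 levels of 4.16 and 4.36 in control and 4.40 and 4.22 with fb-PMT. Its groups overlapped in part, and the log2 difference was 0.05 (SE 0.16).

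**Figure D2:**
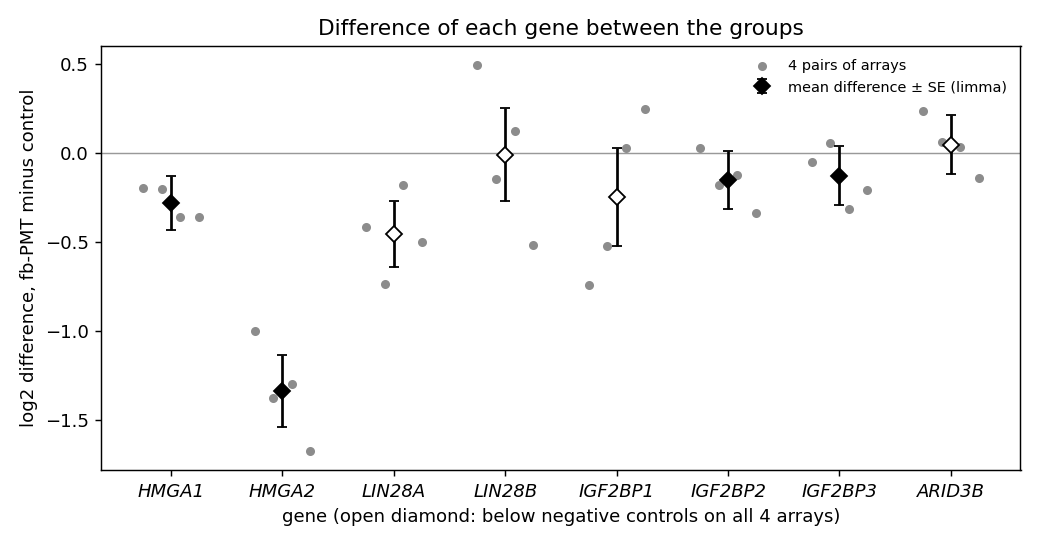
Log2 difference, fb-PMT minus control (vertical axis), of each of the 8 genes as the mean with limma's standard error (diamonds) and as each fb-PMT array minus each control array (4 grey points). HMGA2 stands at -1.34 with every grey point at -1.001 or lower, while the other 7 genes lie between -0.46 and 0.05.

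Over the 8 genes, 7 had a lower and 1 a higher mean with fb-PMT, and the median log2 difference was -0.20. Over all transcript clusters 11298 were lower and 10150 higher, with a median of -0.02. Of the 8 genes, 4 lay below the negative controls on all 4 arrays and have no settled direction. In limma's fit with Benjamini-Hochberg adjustment over all transcript clusters and a threshold of 0.05, 0 of the 8 passed. The share of all transcript clusters that passed was 0.0979% higher and 0% lower. At an unadjusted p under 0.05 HMGA2 was the 1 member below, where 5.49% of all transcript clusters were lower and 5.7% higher. The groups did not overlap for 3 of the 8, all lower: HMGA1, HMGA2 and LIN28A, the last below the negative controls throughout. Groups without overlap were found for 22.3% of all transcript clusters in the lower and 20.2% in the higher direction. When the variance was allowed to depend on signal (an intensity trend), HMGA2 passed, and 0.513% of all transcript clusters passed lower and 1.37% higher. It also passed among the 9199 transcript clusters above the negative controls on both arrays of a group, where 0.902% passed lower and 2.55% higher; HMGA2 enters that selection through the control group alone. Since the members were chosen with this contrast known, nothing is read from these counts.

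Genes around the axis were examined as 9 lists with 130 genes, of which 111 were measured. None of these passed in the same fit with an adjusted p under 0.05, higher or lower. Before adjustment, a p under 0.05 in limma's fit was reached by 8 of the 111 in the higher and 9 in the lower direction. The share of all transcript clusters at that threshold was 5.7% higher and 5.49% lower, so nothing is read from these counts. Their median log2 difference was -0.04. With the intensity trend ARID5B rose, IGF2 fell and PRDM1 passed as higher, although PRDM1 lay below the negative controls on all 4 arrays and so has no settled level. The share of all transcript clusters that passed in that fit was 1.37% higher and 0.513% lower. Among the transcript clusters above the negative controls ARID5B and TPBG rose, IGF2 fell and ABCB1 passed as higher. Of all transcript clusters in that selection 2.55% passed higher and 0.902% lower. ABCB1 entered that selection only through the fb-PMT group, where it is high, so its passing there is no support.

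Of 15 measured genes for processing and turnover of let-7, which include the nucleases DROSHA and DICER1 and the uridylating enzymes TUT4 and TUT7, 5 were higher and 10 lower, with a median log2 difference of -0.06 and a range from -0.33 to 0.44. None passed, and 1, TRIM71, which was below the negative controls, had an unadjusted p under 0.05. The detected members with the largest differences were AGO1 (log2 difference 0.31, SE 0.15) and AGO2 (-0.17, SE 0.18), both Argonaute proteins that carry microRNAs. HUWE1, whose introns host let-7f and miR-98, was at -0.20 (SE 0.17) on the log2 scale, and it was 1 of only 2 measured host transcripts.

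Among 31 measured let-7 targets outside the 8 genes, 12 were higher and 19 lower, and the median log2 difference was -0.05. The detected targets with the largest differences were DNA2, a helicase and nuclease of DNA repair, and E2F5, a transcription factor of the cell cycle. DNA2 had log2 levels of 7.73 and 8.38 in control and 7.48 and 7.35 with fb-PMT (log2 difference -0.64, SE 0.24, adjusted p = 0.431 in limma's fit). E2F5 had a log2 difference of -0.57 (SE 0.22, adjusted p = 0.445 in limma's fit). For both genes the fb-PMT arrays lay below the control arrays without reaching the threshold. Leaving out 1 array moved DNA2 from -0.96 to -0.32 (the last without control replicate 2) and E2F5 from -0.81 to -0.32 (the last without control replicate 1). PRDM1, a transcriptional repressor named after its values were seen, had the highest log2 difference of the list at 1.11 (SE 0.16) but lay below the negative controls on all 4 arrays.

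IGF2, the growth factor whose messenger RNA the IGF2BP proteins bind, had log2 levels of 14.66 and 14.69 in the control samples and of 14.07 and 13.77 after fb-PMT. Both fb-PMT arrays were below both control arrays. The log2 difference was -0.75 (SE 0.17, 1.68-fold lower), which did not pass (adjusted p = 0.266 in limma's fit). With the intensity trend it passed (SE 0.10, adjusted p = 0.00374), and it passed as well among the transcript clusters above the negative controls (adjusted p = 0.0374). Over all 10 alternatives its adjusted p ran from 0.00374 to 0.711, the last without fb-PMT replicate 2, and its log2 difference from -0.90 to -0.60. The locus also gives the INS-IGF2 read-through transcript, which the array may not separate from IGF2. Of the 7 genes for IGF ligands, receptors and substrates, 4 were higher and 3 lower, with a median log2 difference of 0.05. The receptor gene IGF1R was at a log2 difference of 0.10 (SE 0.20), its groups overlapped, and it ran from -0.13 to 0.32 with 1 array left out.

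Of 15 measured transcripts reported as IGF2BP clients, IGF2 included, 6 were higher and 9 lower, with a median log2 difference of -0.13. ABCB1, a drug efflux pump, went from log2 levels of 6.75 and 6.70, below the negative controls, to 7.51 and 7.63. This is at least 1.2-fold higher (adjusted p = 0.192 in limma's fit), where "at least" takes the control group at the background level. MYC, a client named after its values were seen, was at 12.45 and 12.44 in control and 12.10 and 12.13 with fb-PMT on the log2 scale. Its difference of -0.33 (SE 0.14) did not pass.

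Among 9 genes reported as HMGA targets, 3 were higher and 6 lower, with a median log2 difference of -0.04. E2F1, a cell cycle factor, was at 0.27 (SE 0.17) and SNAI2, a repressor that acts in epithelial-mesenchymal transition, at -0.20 (SE 0.26) on the log2 scale. The groups of SNAI2 overlapped, while those of E2F1 did not. With 1 array left out SNAI2 ran from -0.57 to 0.18, turning higher without control replicate 1, and E2F1 from 0.13 to 0.41.

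Other oncofetal genes were split, with 7 of 14 higher and 7 lower and a median log2 difference of -0.01. Of the 14, 7 lay below the negative controls on all 4 arrays, among them AFP and GPC3. TPBG, the trophoblast glycoprotein 5T4, had log2 levels of 7.49 and 7.68 in control and 8.24 and 8.50 with fb-PMT. Its log2 difference was 0.79 (SE 0.17, 1.72-fold higher, adjusted p = 0.255 in limma's fit), and it passed among the transcript clusters above the negative controls (adjusted p = 0.0345, with 0.0345 to 0.711 over the 10 alternatives). IGF2 belongs to this list too. PEG10, an imprinted gene derived from a retroelement, and SALL4, a stem cell transcription factor, were named after their values were seen. PEG10 was at a log2 difference of -0.70 (SE 0.28). SALL4 went from above the negative controls to below them (at least 1.24-fold lower). Its log2 levels were 7.81 and 7.24 in control and 6.90 and 7.04 with fb-PMT. The second control array of SALL4 lay just above its negative controls (7.22). SALL4 thus counts as detected only through the control group, where it is high. Leaving out 1 array moved its log2 difference from -0.84 to -0.27. PLAG1, a zinc finger factor that activates IGF2, likewise named after its values were seen, went the other way. Its log2 levels were 7.03 and 7.59 in control and 8.16 and 7.89 with fb-PMT. The first control array lay below its negative controls (7.38), so PLAG1 counts as detected only through the fb-PMT group, where it is high. The log2 difference was 0.71 (SE 0.23), and the groups did not overlap. None of these 3 passed.

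Relatives of the 8 proteins showed no shared direction. Of 18 measured HMG, ARID and cold shock genes, 9 were higher and 9 lower, with a median log2 difference of -0.00063. ARID5B, a chromatin cofactor, had log2 levels of 10.70 and 10.67 in control and 11.41 and 11.45 with fb-PMT. The groups were clearly apart, with a log2 difference of 0.74 (SE 0.14, 1.68-fold higher), which did not pass (adjusted p = 0.225 in limma's fit) but did with the intensity trend (adjusted p = 0.00905) and among the transcript clusters above the negative controls (adjusted p = 0.0202). Over the 10 alternatives its adjusted p ran from 0.00905 to 0.711. ARID4B was at 0.37 (SE 0.15) on the log2 scale. Of 13 measured m6A genes, which write, erase or read the RNA mark that IGF2BP proteins also recognise, 7 were higher and 6 lower, all between -0.28 and 0.19. YTHDF1, a reader, was at -0.28 (SE 0.15) and RBM15B, of the writer complex, at -0.24 (SE 0.15) on the log2 scale.

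**Figure D3:**
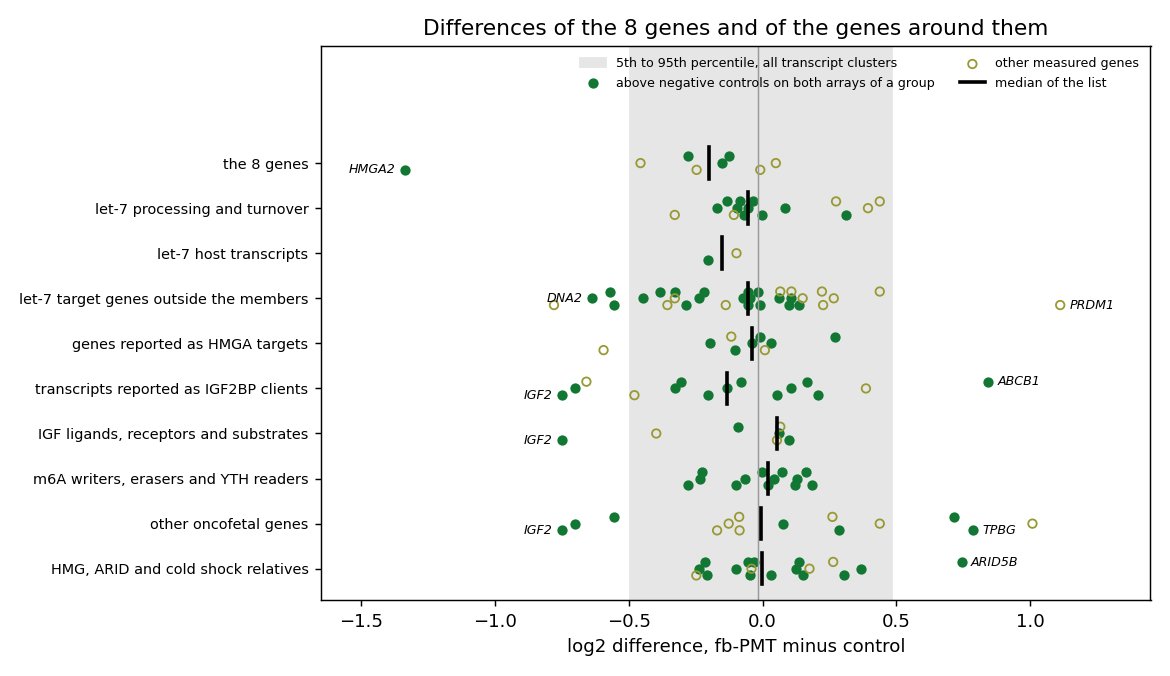
Log2 difference, fb-PMT minus control (horizontal axis), of every measured gene in each list (filled, above the negative controls on both arrays of a group; open, other genes), with the median of each list as a bar and the 5th to 95th percentile of all transcript clusters in grey. HMGA2 at -1.34 and IGF2 at -0.75 lie below the grey range of -0.49 to 0.48. Other listed genes lie outside it on both sides, among them DNA2 below and PRDM1, ABCB1, TPBG and ARID5B above. The medians lie between -0.20 and 0.05.

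The patterns most like that of HMGA2 were sought by Euclidean distance over the 4 arrays, after each gene's own mean was subtracted, among named transcript clusters above the negative controls on both arrays of a group. The 5 nearest were HAS2, OLFML2A, SGIP1, SLC38A4 and LONRF2, at distances of 0.249 to 0.376. HAS2, a hyaluronan synthase, had log2 levels of 9.21 and 9.43 in control and 8.01 and 7.98 with fb-PMT, and SLC38A4, an amino acid transporter, of 10.57 and 10.43 against 9.42 and 9.23. Over 4 arrays likeness reflects mainly the difference between the groups and is a description only. None of the 5 is a member of the axis.

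**Figure D4:**
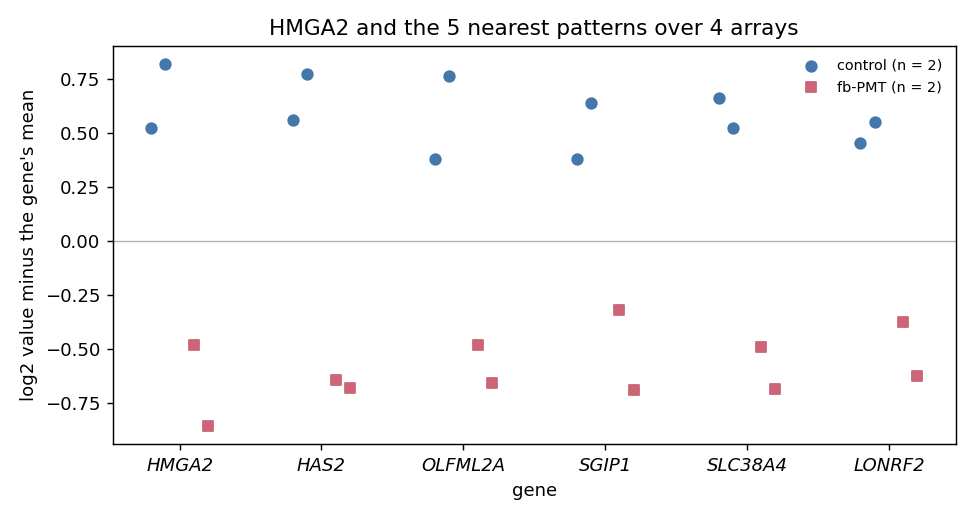
Log2 value minus the gene's own mean (vertical axis) for HMGA2 and the 5 genes nearest to it, on the 2 control arrays (circles) and the 2 fb-PMT arrays (squares). In all 6 genes both control arrays lie above 0 and both fb-PMT arrays below it. The 5 genes were chosen for likeness to HMGA2 on these arrays, so the shared pattern follows from the choice.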

How the data were processed

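SUIT2 RNA was measured on whole-transcript arrays of 1 colour, 2 per group. Per the submitters' processing notes, the log2 values per probe set that the authors deposited come from RMA, with Transcriptome Analysis Console at version 4.0.1.36. The genome build is not given in the sources used here, and no scanner files or detection calls were used. RMA shrinks differences near background, and normalization between arrays removes shifts shared by most genes. Of 24351 probe sets, 2903 controls were left out. The platform annotation gave 1 symbol for 17709 transcript clusters, and each of the 17709 was found in RefSeq by its Entrez identifier. The 95th percentile of 612 negative control probe sets was taken as background.

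The main comparison was fitted to all 21448 transcript clusters by limma (version 3.58.1, R version 4.3.3; lmFit, eBayes, no covariate) as fb-PMT minus control, with two-sided p-values adjusted by Benjamini-Hochberg. The fit was also run on simulated data drawn from its own fitted variances, with independent noise on each array. That run cannot show how the fit performs where the replicates are technical. Standard errors of the log2 differences had a median of 0.175, and the number of arrays, 4, limits the precision. Replicates correlated with r = 0.995 (control) and 0.996 (fb-PMT) across transcript clusters, groups with 0.992 to 0.994.

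The members and lists were chosen with earlier results of these data known. From each list the text names up to 4 genes that passed, or otherwise the 2 with the largest difference among those above background on both arrays of a group (1 for the let-7 hosts), and the 5 genes nearest HMGA2. The alternatives were a replicate block, an intensity trend, leaving out the lowest 30% of transcript clusters or those below background, renewed quantile normalization, centring on medians and leaving out each array.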

Additional observations from a re-analysis of the deposited data

How the results depend on the processing

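HMGA2 had a log2 difference of -1.34 without passing under the replicate block. It passed at -1.34 with the intensity trend, where 0.513% of all transcript clusters passed lower. It also passed among the transcript clusters above the negative controls, where 0.902% passed lower. In each of these settings 1 of the 8 genes passed instead of 0. HMGA2 enters the selection above the negative controls through the control group alone, where it is high. The set was also chosen with this contrast known, so the passing of HMGA2 is no support. Leaving out 1 array moved the log2 difference of HMGA2 from -1.53 to -1.15. HMGA1 and IGF2BP2 kept their lower direction under all 10 alternatives. LIN28B turned to 0.046 with renewed quantile normalization and ran from -0.33 to 0.31 when 1 array was left out. Likewise IGF2BP1 ran from -0.63 to 0.14 (higher without control replicate 1), IGF2BP3 from -0.26 to 0.0062 (higher without control replicate 2) and ARID3B from -0.052 to 0.15 (lower without control replicate 1 or fb-PMT replicate 1). The median over the 8 genes was -0.27 to -0.14.

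In place of 0, 3 of the 111 measured genes of the lists passed with the intensity trend, 2 higher and 1 lower. Over all transcript clusters 1.37% passed higher and 0.513% lower in that fit. Above the negative controls 4 of the 76 genes of the lists found there passed, 3 higher and 1 lower. Of all transcript clusters in that selection 2.55% passed higher and 0.902% lower, so nothing is read from these counts. The 21 transcript clusters that passed became 1 with the replicate block, 403 with the trend, 67 without the lowest 30%, 318 above the negative controls, and 1 to 9 with 1 array left out (9 without control replicate 1, 5 without control replicate 2, and 1 without either fb-PMT array). Same-numbered arrays deviated from their group means with a correlation of 0.042, so the numbers were not taken to pair the samples. The filters test fewer transcript clusters and estimate the variances anew. The replicate block, or a left-out array, leaves fewer degrees of freedom for estimating variation than the main fit. Beyond that the cause of these changes was not tested. Genes below the negative controls have no settled level or direction on these arrays.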
